A study of Mus musculus with 12 samples.

Results

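Macrophages that clear a muscle injury also release the growth factors that rebuild it, and the transcripts of 9 such factors are described here in myeloid cells sorted from injured mouse muscle. The genes were Igf1, Gdf3, Gdf15, Gpnmb, Spp1, Tgfb1, Pdgfb, Vegfa and Osm, taken by symbol from a deposited table of 24421 genes. All 9 were found, and all 9 were among the 12981 genes with enough counts to be tested. They were picked by name, as known factors of reparative macrophages, with earlier results of these data known.

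Notexin, a toxin from snake venom that destroys muscle fibres, was injected into the tibialis anterior, and cells were taken on day 5. There were 3 libraries in each of 4 groups, null/null mice given anti-TNF, wt/null mice given anti-TNF, null/null mice given isotype and wt/null mice given isotype. The first term is the genotype at Ifngr1, the ligand-binding chain of the interferon gamma (IFN-γ) receptor, and every mouse carried at least 1 null allele, so the table holds no group with both alleles intact. The second term is the antibody given daily into the peritoneum, either one that neutralizes TNF or its isotype control. The sort kept live CD45+ CD11B+ cells negative for LY6G and SIGLECF, a gate that removes neutrophils and eosinophils but keeps dendritic cells and monocytes beside macrophages. The labels do not say whether each library was 1 mouse, or give the age of the mice, so p-values measure the spread between libraries.

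In the first days after injury, muscle macrophages are inflammatory, and they then shift to a reparative state that feeds muscle precursors, fibroblasts and vessels. Igf1 drives growth and differentiation of myoblasts. Gdf3, in mice, is made by reparative macrophages under control of the nuclear receptor PPAR-γ and favours fusion of myoblasts. Tgfb1 is secreted in a latent form and, once freed, keeps fibro-adipogenic progenitors alive and turns them towards matrix production. Gdf15, a distant relative, is released by stressed cells. Pdgfb recruits mesenchymal cells and pericytes, Vegfa induces vessel growth, and Osm, a cytokine of the IL-6 family, can hold muscle stem cells in quiescence. Spp1 encodes osteopontin, an adhesive protein of inflamed and healing tissue. Gpnmb is a transmembrane glycoprotein of lysosome-rich macrophages whose outer part is shed. The study asked how IFN-γ and TNF act together on the change of macrophages from one state to the other.

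The 9 genes lie on 8 chromosomes, with Gdf3 (6:122605403-122610087, minus strand) and Gpnmb (6:49036546-49070929, plus strand) on the same one (coordinates from GENCODE M21, build GRCm38, the build called mm10 in the submitters' notes). Tgfb1 lies at 7:25687002-25705077, Igf1 at 10:87858265-87937042, Spp1 at 5:104435118-104441050 and Osm at 11:4236420-4241026, all on the plus strand. Gdf15 lies at 8:70629393-70632456, Pdgfb at 15:79995874-80014977 and Vegfa at 17:46016993-46032369, all on the minus strand. All are protein-coding, and a value stands for all exons and isoforms of the gene together. Only Spp1 shares exon bases with another annotated gene, Gm42793 on the same strand, which has no row of its own in the table. Igf1 and Pdgfb each have an antisense gene within their bounds, Igf1os and Gm41361, with no exon bases shared.

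RefSeq promoter windows (build GRCm38.p6) were matched for 6 of the 9 members. The 250 bases before the start are shown for Vegfa and Gdf15, whose levels correlated across libraries, and for Spp1, the most abundant member per length. The start is one that RefSeq lists for the gene. The sequences run 5′ to 3′ on the strand of the gene, and capitals mark matches, on either strand, to the NF-κB consensus, to the interferon-response core (GAAA, then 2 bases of any kind, then GAAA), to the IFN-γ activated site TTCNNNGAA, to the AP-1 site TGANTCA or to the hypoxia core ACGTG.
Vegfa promoter, minus strand, chr17:46032378-46032627: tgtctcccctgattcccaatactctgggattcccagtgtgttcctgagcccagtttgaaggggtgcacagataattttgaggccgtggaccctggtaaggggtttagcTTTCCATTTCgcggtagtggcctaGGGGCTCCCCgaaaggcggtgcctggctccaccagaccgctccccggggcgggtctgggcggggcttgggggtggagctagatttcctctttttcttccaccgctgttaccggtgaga
Gdf15 promoter, minus strand, chr8:70632457-70632706: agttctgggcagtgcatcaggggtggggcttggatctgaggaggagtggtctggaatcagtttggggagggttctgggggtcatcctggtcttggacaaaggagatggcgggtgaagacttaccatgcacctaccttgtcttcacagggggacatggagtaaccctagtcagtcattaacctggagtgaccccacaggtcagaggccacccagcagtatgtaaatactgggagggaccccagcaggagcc
Spp1 promoter, plus strand, chr5:104434861-104435110: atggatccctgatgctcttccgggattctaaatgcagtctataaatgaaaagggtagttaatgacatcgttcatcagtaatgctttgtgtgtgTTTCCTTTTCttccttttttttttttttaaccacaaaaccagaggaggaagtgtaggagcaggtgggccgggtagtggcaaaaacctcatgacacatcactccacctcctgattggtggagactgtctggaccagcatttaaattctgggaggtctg
The Vegfa window held an NF-κB match starting 118 bases before the start and an interferon-response core 142 bases before it. The Spp1 window held an interferon-response core 157 bases before its start, and none of the 5 motifs was found in the Gdf15 window. No 2 matches overlap. Of 32851 windows of the same length, 3.90% held the NF-κB consensus, 2.98% the interferon-response core, 7.02% the IFN-γ activated site, 6.75% the AP-1 site and 16.6% the hypoxia core. A match is a description of letters and not a bound site.

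The libraries held 23159524 to 29947668 counts. Ifngr1 was at 83.3 to 119 CPM (the gene's count relative to the library total, scaled between libraries by the TMM method) in the null/null libraries and at 226 to 250.5 CPM in the wt/null libraries. Markers of macrophages (10 of 10 found, among them Adgre1, Csf1r and Cd68) summed to between 29177 and 36752 CPM in every library, while markers of B cells summed to at most 0.797 CPM. On the first principal component (34.4% of variance) null/null anti-TNF 1 scored 45.9 and wt/null anti-TNF 2 scored 54.2, with all others between -20.8 and -3.47. These libraries stood apart in cell markers too. Their summed dendritic cell markers were 184 and 210 CPM, against 45.4 to 75.8 CPM in the other 10 libraries. Their T and NK cell markers were 10.2 and 17.8 CPM, against 0.727 to 2.30 CPM, and their monocyte markers 1005 and 1046 CPM, against 397 to 699.6 CPM. Fibroblast markers were 243 and 335 CPM, against 512 to 1260.4 CPM, osteoclast markers 487 and 413 CPM, against 896 to 3552 CPM, and endothelial markers 46.8 and 50.9 CPM, against 20.5 to 39.5 CPM. Neutrophil markers, which the gate should remove, summed to 32.9 CPM in null/null isotype 1 and to 0.655 to 3.98 CPM in the other libraries. Titles of 4 libraries, 1 per group, start with 46 and those of 8 with 40, and the labels do not say what that number means. Each title also holds a letter and a last digit, likewise unexplained. The libraries that stand apart are titled 40C2 (null/null anti-TNF 1) and 40C1 (wt/null anti-TNF 2).

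Set on a common scale, the members covered a wide range of levels. Per kilobase of exon, Spp1 averaged 3676 ± 1768 CPM per kb (mean ± SD over 12 libraries), which was 7.92 times the mean of Gpnmb at 464 ± 72.3 and 780 times that of Vegfa. Tgfb1 followed at 101 ± 11.1 CPM per kb, then Gdf15 at 47.8 ± 20.0 and Pdgfb at 38.8 ± 7.21. Osm was at 30.7 ± 8.04, Igf1 at 23.9 ± 3.67, Gdf3 at 17.8 ± 6.88 and Vegfa at 4.71 ± 2.26 CPM per kb. The ranges of Spp1, Gpnmb and the next member, Tgfb1, did not overlap, nor did those of Gdf3 and Vegfa at the low end. Each neighbouring pair from Tgfb1 down to Gdf3 overlapped in range over the libraries, so the order within that stretch is loose. Lengths are those of all annotated exons joined, so a gene that uses few of them, such as Igf1 with 9904 bases, is set too low on this scale. A sorted population gives a mean over cells, so fewer cells with a transcript and less transcript per cell cannot be told apart.

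**Figure D1:**
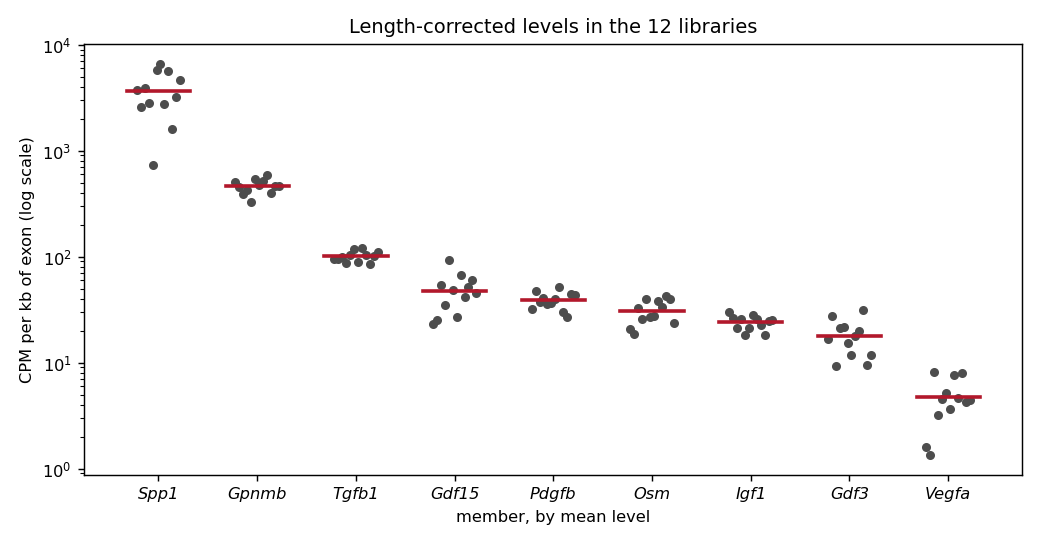
Levels of the 9 members in CPM per kb of exon (log axis), one point per library (n = 12), with a red line at the mean. Spp1 (735.6 to 6632) and Gpnmb (327 to 595) lie above all others and Vegfa (1.34 to 8.23) below.

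None of the 9 members passed the test in any of the 8 comparisons of genotype and antibody (edgeR quasi-likelihood, Benjamini-Hochberg adjusted p below 0.05 over all 12981 genes), and none reached an unadjusted p below 0.05. The share of all genes called was 0.0077%, which is Ifngr1 alone, for genotype averaged over antibody, for genotype under each antibody and for both perturbations against neither. It was 0% for the antibody averaged over genotype, for the antibody in each genotype and for the interaction, where 949, 581, 452 and 196 genes had an unadjusted p below 0.05 in that order and DESeq2 called 14, 0, 0 and 0 genes. The members' count of 0 is near the background. Over the averaged comparisons the 95% interval of the fold stayed within 2-fold either way for 7 members for genotype, Vegfa and Spp1 being the exceptions, and for 6 members for antibody, the exceptions being Gdf15, Vegfa and Spp1. It stayed within 1.5-fold for Tgfb1, Igf1, Pdgfb and Gpnmb in both averages.

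Of the TGF-β superfamily, Tgfb1 was the steadiest member. It was at 433, 513 and 553 CPM in null/null anti-TNF, 444, 521 and 591 CPM in wt/null anti-TNF, 445, 606 and 526 CPM in null/null isotype and 475, 483 and 503 CPM in wt/null isotype. All 4 groups overlapped, and the highest library was 1.40 times the lowest. The null/null over wt/null fold averaged over antibodies was 1.02 (95% interval 0.882 to 1.18, adjusted p = 1.00), and the anti-TNF over isotype fold was 1.01 (0.870 to 1.16, adjusted p = 0.984). 

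Gdf3, low in level, varied widely between libraries. It was at 75.9, 23.1 and 28.7 CPM in null/null anti-TNF, 51.0, 52.6 and 36.9 CPM in wt/null anti-TNF, 28.7, 42.8 and 47.7 CPM in null/null isotype and 40.3, 66.0 and 22.6 CPM in wt/null isotype. The highest value belonged to null/null anti-TNF 1, one of the libraries that stand apart, and the groups overlapped throughout. The fold was 0.918 for null/null over wt/null (0.547 to 1.54, adjusted p = 1.00) and 1.08 for anti-TNF over isotype (0.644 to 1.81, adjusted p = 0.926). Without both libraries that stand apart the antibody estimate changed sign, at -0.29 on the log2 scale against 0.11 with them.

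Gdf15 had its lowest values in wt/null isotype, though not in every library. It was at 96.3, 111 and 84.4 CPM in null/null anti-TNF, 65.2, 172 and 90.3 CPM in wt/null anti-TNF, 50.2, 124 and 77.6 CPM in null/null isotype and 42.6, 46.5 and 101 CPM in wt/null isotype. The library at 172 CPM, wt/null anti-TNF 2, stands apart, and the third wt/null isotype library overlapped the other groups. Anti-TNF over isotype was 1.41-fold averaged over genotypes (0.869 to 2.30, adjusted p = 0.683). Without both libraries that stand apart the log2 estimate was 0.26, against 0.50 with them. In wt/null alone the fold was 1.73 (0.864 to 3.45, adjusted p = 0.895), a log2 estimate of 0.79 that was 0.30 without wt/null anti-TNF 2. The interaction, the antibody effect in null/null minus that in wt/null, was -0.58 on the log2 scale (-1.98 to 0.83, adjusted p = 1.00), and -0.085 without that library. For null/null over wt/null the fold was 1.09 (0.669 to 1.77, adjusted p = 1.00), and for both perturbations against neither 1.54 (0.771 to 3.07, adjusted p = 1.00).

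**Figure D2:**
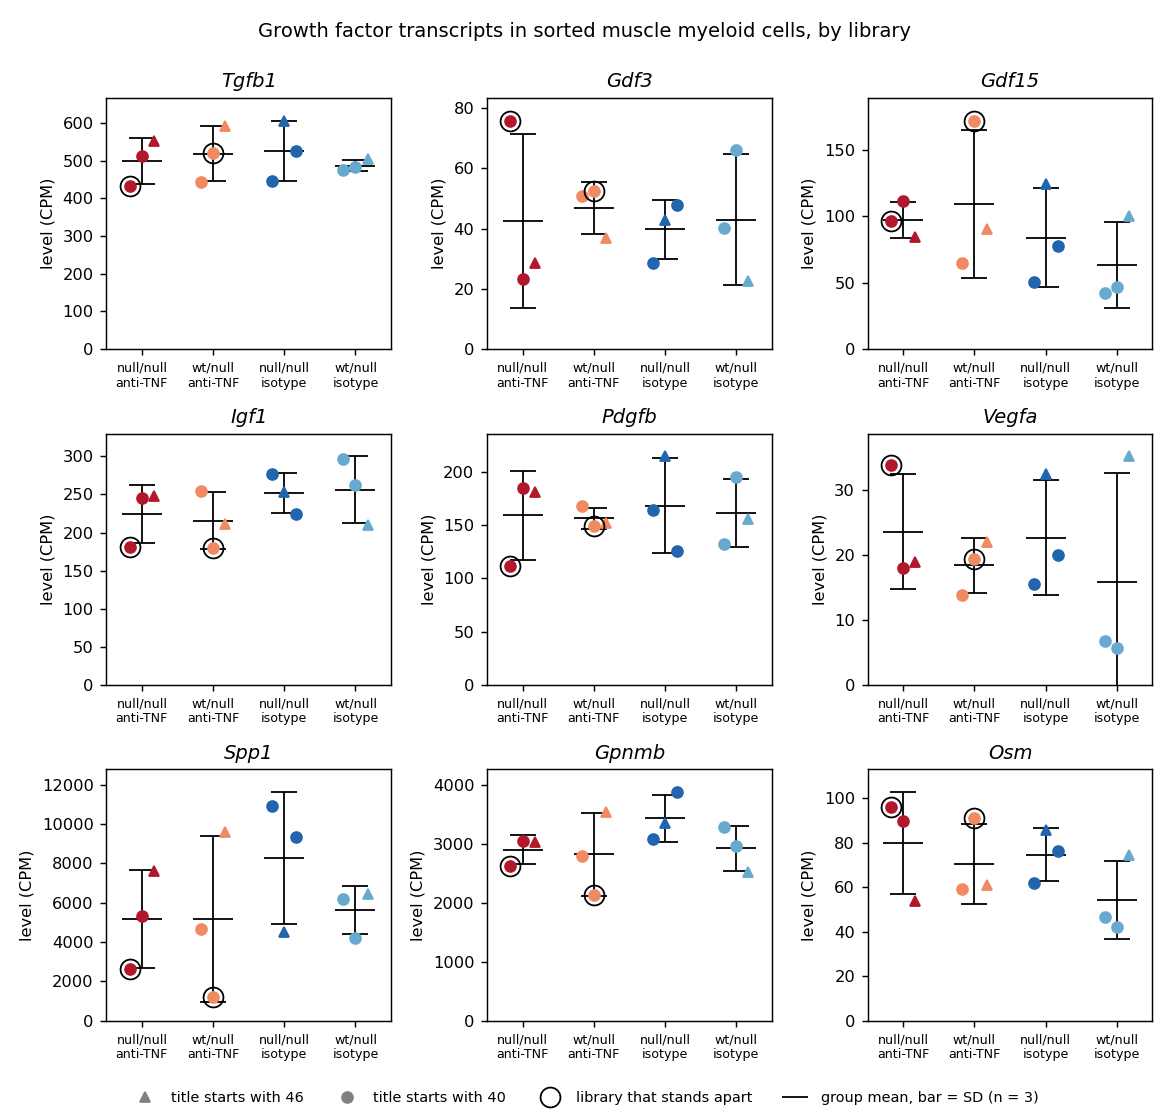
CPM of each member (linear axes from 0) in the 3 libraries of each group, with the group mean and SD (n = 3). Triangles are libraries whose title starts with 46, rings the 2 libraries that stand apart, and the SD bar of Vegfa in wt/null isotype is cut at 0. The groups overlap for every member in all but 1 comparison, Gpnmb in null/null anti-TNF against null/null isotype.

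Igf1 was nearly as even as Tgfb1. It was at 181, 245 and 248 CPM in null/null anti-TNF, 255, 180 and 212 CPM in wt/null anti-TNF, 277, 253 and 224 CPM in null/null isotype and 296, 262 and 209.5 CPM in wt/null isotype. The 2 lowest values, 181 and 180 CPM, were those of the libraries that stand apart, and the other 10 lay between 209.5 and 296 CPM. The anti-TNF over isotype fold was 0.866 (0.726 to 1.03, adjusted p = 0.661, edgeR), and 0.841 in wt/null alone (0.655 to 1.08, adjusted p = 0.895). The averaged antibody estimate was -0.083 on the log2 scale without both libraries that stand apart, against -0.21 with them. For null/null over wt/null the fold was 1.01 (0.848 to 1.21, adjusted p = 1.00).

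Pdgfb and Vegfa belong to one family of growth factors. Pdgfb was at 111, 185 and 182 CPM in null/null anti-TNF, 168, 150 and 152 CPM in wt/null anti-TNF, 165, 215 and 126 CPM in null/null isotype and 132, 196 and 156 CPM in wt/null isotype. All groups overlapped around similar means, from 157 ± 9.80 CPM in wt/null anti-TNF to 168 ± 44.5 CPM in null/null isotype (SD, n = 3). Its folds were 1.03 for null/null over wt/null (0.811 to 1.31, adjusted p = 1.00) and 0.958 for anti-TNF over isotype (0.753 to 1.22, adjusted p = 0.916).

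Vegfa was at 33.9, 18.1 and 18.9 CPM in null/null anti-TNF, 13.8, 19.4 and 22.1 CPM in wt/null anti-TNF, 15.6, 32.6 and 20.0 CPM in null/null isotype and 6.83, 5.73 and 35.3 CPM in wt/null isotype. The wt/null isotype group thus held the 2 lowest values of all 12 libraries and also the highest. The null/null over wt/null fold was 1.35 averaged over antibodies (0.687 to 2.65, adjusted p = 1.00) and 1.42 under isotype (0.545 to 3.68, adjusted p = 1.00). For anti-TNF over isotype it was 1.09 (0.557 to 2.14, adjusted p = 0.935). These values rest on wt/null isotype 3. Without it the log2 estimates were 1.104 for null/null over wt/null averaged over antibodies, against 0.43 with it, 1.85 under isotype, against 0.50, and 0.81 for anti-TNF over isotype, against 0.13, and none of these passed. Vegfa had at least 134 counts in every library.

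**Figure D3:**
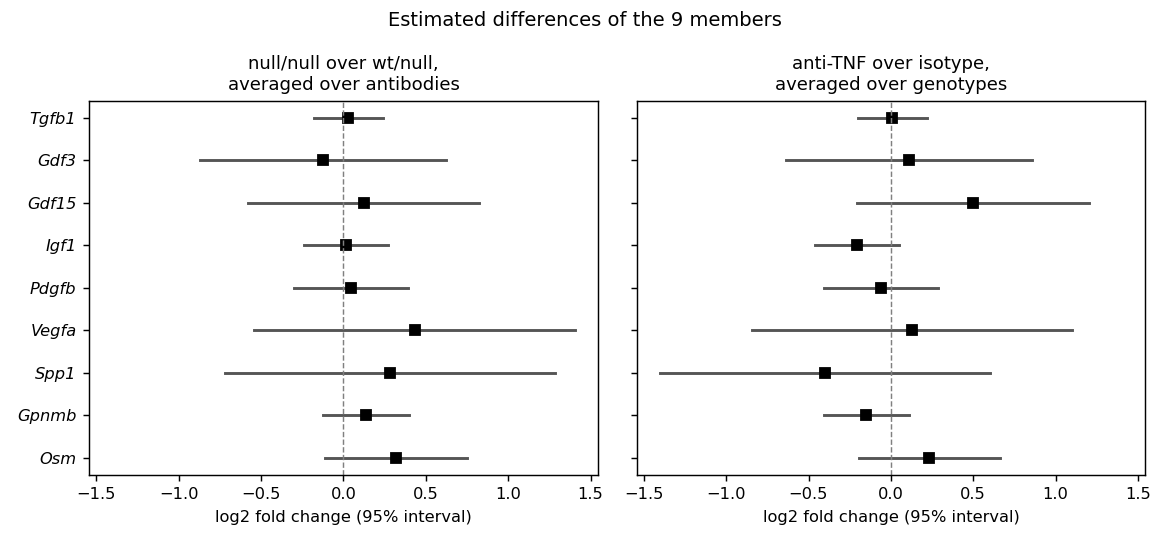
Log2 fold changes of the 9 members (squares) with 95% intervals (lines) for null/null over wt/null and for anti-TNF over isotype, from the edgeR fit on 12 libraries. Every interval includes 0; those of Tgfb1 are the narrowest (for example -0.20 to 0.22 for the antibody) and those of Spp1 and Vegfa the widest.

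Spp1, the most abundant member per length, ranged widely. It was at 2610, 5324 and 7607 CPM in null/null anti-TNF, 4671, 1212 and 9593 CPM in wt/null anti-TNF, 10930.3, 4510 and 9368 CPM in null/null isotype and 6191, 4223 and 6450 CPM in wt/null isotype. The libraries that stand apart were again the 2 lowest, at 2610 and 1212 CPM, and the other 10 lay between 4223 and 10930.3 CPM. That is a 2.59-fold range without them and a 9.02-fold range with them, whereas Vegfa, at 6.15-fold both ways, had the widest range of the members without them. The highest Spp1 was in null/null isotype 1, the library with the highest neutrophil markers, whose part in it was not tested. The lower Spp1 in these libraries went with their lower osteoclast and fibroblast markers and higher dendritic, T cell and monocyte markers given above, whose part in it was not tested. The null/null over wt/null fold was 1.22 averaged over antibodies (0.607 to 2.44, adjusted p = 1.00) and 1.47 under isotype (0.549 to 3.94, adjusted p = 1.00). The anti-TNF over isotype fold was 0.758 (0.378 to 1.52, adjusted p = 0.803), a log2 estimate of -0.40 that was -0.0057 without both libraries that stand apart.

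Gpnmb was high and even. It was at 2617, 3054 and 3030 CPM in null/null anti-TNF, 2788, 2133 and 3548 CPM in wt/null anti-TNF, 3091, 3348 and 3877 CPM in null/null isotype and 3280, 2963 and 2530.5 CPM in wt/null isotype. In null/null mice all anti-TNF libraries lay below all isotype libraries, the 1 case among the 9 members and 5 comparisons of 3 with 3 libraries where the ranges did not overlap. In that comparison 8.41% of all genes did not overlap, and 0 members did so in the other 4, where the share of all genes was 7.96% for genotype under isotype, 5.15% for genotype under anti-TNF, 10.2% for the antibody in wt/null and 7.9% for both against neither. A count of 1 in 9 is near that background. The fold there was 0.843 (0.654 to 1.09, adjusted p = 0.947). Averaged over antibodies, the log2 fold change of null/null over wt/null was 0.14 (-0.12 to 0.40, adjusted p = 1.00). Averaged over genotypes, that of anti-TNF over isotype was -0.15 (-0.41 to 0.11, adjusted p = 0.721), and -0.031 without both libraries that stand apart.

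Osm had the smallest unadjusted p of any member in any of the 8 comparisons, for both perturbations against neither. It was at 96.1, 89.7 and 53.7 CPM in null/null anti-TNF, 59.2, 91.0 and 61.0 CPM in wt/null anti-TNF, 61.9, 85.8 and 76.4 CPM in null/null isotype and 46.8, 42.0 and 74.5 CPM in wt/null isotype. The highest pair of values, 96.1 and 91.0 CPM, belonged to the libraries that stand apart, and the third wt/null isotype library overlapped every other group. For null/null anti-TNF over wt/null isotype the fold was 1.46 (0.961 to 2.23, adjusted p = 1.00, edgeR). The null/null over wt/null fold was 1.25 averaged over antibodies (0.927 to 1.68, adjusted p = 1.00) and 1.37 under isotype (0.900 to 2.09, adjusted p = 1.00). The anti-TNF over isotype fold was 1.17 (0.873 to 1.58, adjusted p = 0.730). Without both libraries that stand apart the log2 estimates were 0.39 for both against neither, against 0.55 with them, and 0.040 for the antibody, against 0.23 with them.

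The members thus split by how much they varied between libraries of the same group. The biological coefficient of variation (the part of the spread beyond counting) was 0.131 for Tgfb1, 0.153 for Igf1 and 0.156 for Gpnmb, near the median of 0.142 over all genes. It was 0.196 for Pdgfb and 0.236 for Osm. For Gdf15 it was 0.374, for Gdf3 0.397, for Vegfa 0.515 and for Spp1 0.525, the last at the 97.1st percentile of all genes tested. These values include both libraries that stand apart, and none without them is given. Without them the highest Spp1 library was 2.59 times the lowest, against 9.02 times with them. For Gdf3 and Gdf15 that ratio without them was 2.92. The minimum count of any member in any library was 134.

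**Figure D4:**
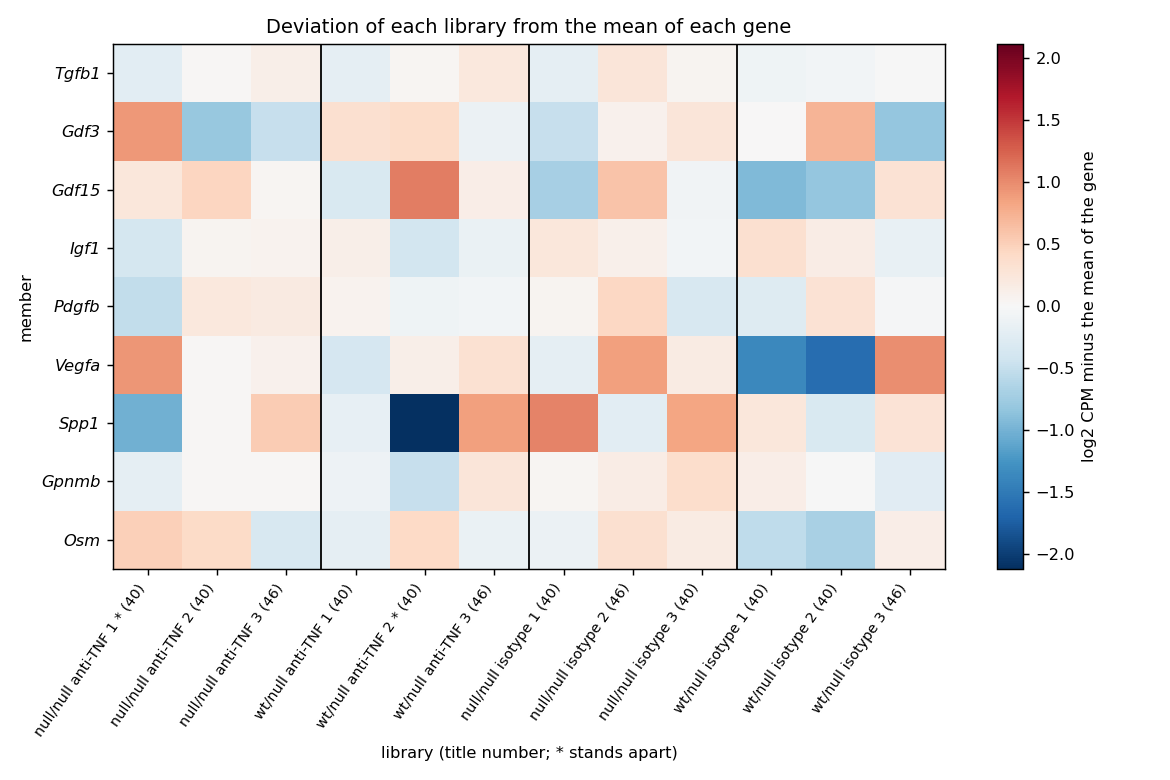
Log2 CPM of each member in each library minus the mean of that gene over 12 libraries, blue below and red above, with the anti-TNF columns left of the isotype columns and, within each antibody, null/null left of wt/null. Spp1 is lowest in the libraries marked with an asterisk, and Vegfa, Gdf15 and Osm are all low in wt/null isotype 1 and 2.

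Levels of Gdf15, Vegfa and Osm ran together over the libraries by Pearson's r, though none of their pairs passed by Spearman's rho. The permutations moved libraries freely across groups and title numbers, so the p-values do not set shared differences between those apart. Over all 12 libraries, Gdf15 and Osm had a Pearson r of 0.82 on log2 CPM (permutation p = 0.00091, adjusted p = 0.0245 over 36 pairs of members) and a Spearman rho of 0.80 (adjusted permutation p = 0.0743). For Vegfa and Osm r was 0.80 (adjusted permutation p = 0.0245) and rho 0.66 (0.119), and for Gdf15 and Vegfa r was 0.74 (0.0466) and rho 0.70 (0.101). With the 2 libraries farthest from the median of the first-named member left out, these r were 0.77, 0.51 and 0.82 in the same order. Within the 8 libraries titled 40 they were 0.88, 0.94 and 0.71, and the 4 titled 46 are too few for a value of their own.

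Spp1 with Gpnmb (r = 0.78, adjusted permutation p = 0.0406) and Gdf15 with Igf1 (r = -0.74, adjusted permutation p = 0.0490) also passed over the 12 libraries. Of the 36 pairs, 5 passed by Pearson's r and 0 by Spearman's rho after adjustment (7 and 8 had an unadjusted p below 0.05). Over the 10 libraries other than the 2 that stand apart, 1 pair passed by r and 0 by rho (6 and 8 had an unadjusted p below 0.05). That pair was Gdf15 and Vegfa, with r of 0.87 (adjusted permutation p = 0.0295) and rho of 0.82 (0.127). Gdf15 with Osm was then at r of 0.83 and Vegfa with Osm at r of 0.81 (adjusted permutation p = 0.0524 each). Spp1 with Gpnmb fell to r of 0.42 (0.541). Gdf15 with Igf1 stayed near its value over 12 libraries, at r of -0.67 (0.213), but did not pass with fewer libraries. Igf1 and Vegfa also ran in opposite directions without passing. Their r was -0.64 (adjusted permutation p = 0.124) and rho -0.76 (0.0743) over 12 libraries. Over 10 libraries r was -0.69 (0.204) and rho -0.81 (0.127).

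**Figure D5:**
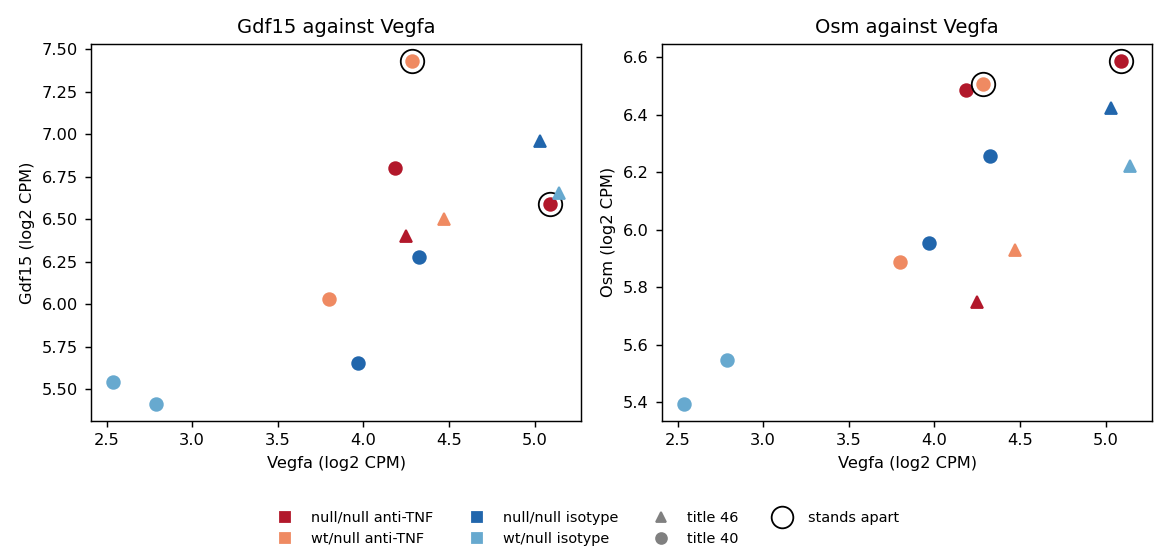
Log2 CPM of Gdf15 (left) and Osm (right) against Vegfa, one point per library, coloured by group, with triangles for titles starting with 46 and rings for the 2 libraries that stand apart. Over all 12 libraries r with Vegfa is 0.74 for Gdf15 and 0.80 for Osm, and without the ringed points 0.87 and 0.81, and wt/null isotype 1 and 2 lie at the low end of both.

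The genes most like each member over the 12 libraries were taken next (Pearson r on log2 CPM among 9961 genes, a description with no test, where the libraries share depth scaling and the pull of the 2 that stand apart). Gdf15 was most like the immediate early genes Junb (r = 0.97) and Fosb (0.96) and the endonuclease gene Zc3h12a (0.96), with 0.95 for each without the 2 libraries. Junb ran with it at 954 to 1343 CPM in null/null anti-TNF, 957 to 1662 CPM in wt/null anti-TNF, 823 to 1318 CPM in null/null isotype and 751 to 1247 CPM in wt/null isotype. Vegfa was most like Fosl2 (0.95), another AP-1 subunit, Thbd (0.92), which encodes thrombomodulin, and Thbs1 (0.91), which encodes the TGF-β activating protein thrombospondin-1. Osm was most like Nfil3, Ccrl2 (both 0.93) and the neutrophil chemokine Cxcl2 (0.92). Immediate early genes also respond to tissue dissociation, and what their level contributes to Gdf15, Vegfa and Osm was not tested.

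Spp1 was most like Adgrl2 (0.96), the macrophage growth factor Csf1 (0.95) and Akr1b8 (0.94), with 0.82, 0.89 and 0.81 without the 2 libraries. Igf1 was most like Syne1 (0.99), Arhgap21 (0.97) and 2310022B05Rik (0.96), and Gpnmb like Rps6ka2, Anapc2 (both 0.94) and the lysosomal phospholipase family gene Pld3 (0.93). Tgfb1 was most like Adgre5 (0.94), Lypla2 (0.91) and Trp53 (0.90). Gdf3 had Adap2 (0.85), Ipp and Dffb (both 0.82) and Pdgfb had Samd4 (0.88), Rfx2 (0.84) and Prkar1b (0.81), the loosest matches. Without the 2 libraries these were 0.78, 0.78 and 0.91 for Gdf3 and 0.80, 0.77 and 0.79 for Pdgfb. The genes named for each member were the 3 highest of 9961 over 12 libraries, and such a choice raises r by itself.

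The title number was set against the members because it splits each group. In an edgeR fit with that number as a term beside the 4 groups, 0 of 9 members and 0.0154% of all genes passed (Adam19 and Rnase4, named after their values were seen). At an unadjusted p below 0.05 in that fit were 1276 genes, or 9.83% of all, and 1 of 9 members, a count near that background. Tgfb1 was that member, at 563 ± 45.8 CPM in libraries titled 46 (SD, n = 4) and 480 ± 37.4 CPM in those titled 40 (n = 8), a 1.17-fold difference (1.04 to 1.32, adjusted p = 0.377, edgeR). The library titled 46 was the highest of its group in 4 of 4 groups. No share of all genes with such an order is given, so this count and that of Vegfa below have no background. Vegfa was at 27.2 ± 7.93 CPM in libraries titled 46 and 16.7 ± 8.82 CPM in those titled 40, a 1.88-fold difference (0.999 to 3.53, adjusted p = 0.508, edgeR), with the library titled 46 highest in 3 of 4 groups. Cell markers differed with the title number too, but both libraries that stand apart are titled 40 and were kept in this fit. Of the osteoclast markers 6 of 6 estimates were higher in libraries titled 46, with a median log2 fold change of 1.63. Of these, 5 had an unadjusted p below 0.05 (edgeR) and 0 passed. Their sums were 1486 to 3552 CPM in libraries titled 46 and 413 to 2302 CPM in those titled 40. Without the libraries that stand apart, the sums in those titled 40 were 896 to 2302 CPM. T and NK cell markers (4 of 6 tested), which were high in the libraries that stand apart, had a median log2 fold change of -1.20. Muscle cell marker sums were 70.9 to 86.1 CPM in libraries titled 46 and 43.7 to 64.5 CPM in those titled 40. Most of that sum is Acta1, at a mean of 46.7 CPM. Of the muscle cell markers 4 of 6 estimates were higher in libraries titled 46. Of the 6, 3 had an unadjusted p below 0.05 (edgeR) and 0 passed. The part of these cell markers in the values of Tgfb1 and Vegfa was not tested.

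Other genes of these pathways were then counted. Of 162 genes in 9 lists of other ligands, activators, receptors and response programmes, 140 were tested and 0 rose or fell past the threshold in any of the 8 comparisons (edgeR). In each comparison 1 to 5 of the 140 had an unadjusted p below 0.05 (edgeR). The share of all genes at that level ran from 1.51% for the interaction to 7.31% for the antibody averaged over genotype. Among other growth factor ligands (24 of 36 tested), the median log2 fold change was 0.08 for null/null over wt/null and 0.05 for anti-TNF over isotype, beside 0.00 and 0.01 over all genes. The 2 most abundant were Grn, the precursor of granulins, at a mean of 3504 CPM, and Csf1, at 93.2 CPM. Proteins that free or bind the members (22 of 27 tested) had medians of 0.06 and -0.07, and led with the integrin subunit Itgb5, which pairs with αv to bind latent TGF-β (768 CPM), and the membrane protease Mmp14 (466 CPM).

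Receptors of the members (26 of 29 tested) had medians of -0.03 for null/null over wt/null and -0.01 for anti-TNF over isotype, with the integrin β1 gene Itgb1 at 630 CPM and the VEGF co-receptor Nrp1 at 450 CPM. TGF-β response genes (8 of 8 tested) had medians of 0.06, with 8 of 8 estimates above 0, and 0.05, with 5 of 8. The 8 of 8 held for the average only, with 4 of 8 above 0 for genotype under isotype and 7 of 8 under anti-TNF. Tgfbi, a matrix protein that TGF-β induces, averaged 1787 CPM and Ski, a repressor of SMAD signalling, 219 CPM. Hypoxia response genes (13 of 13), a programme that includes Vegfa itself in many cells, had medians of 0.06 and -0.06, with Ldha at 388 CPM and Mxi1 at 90.2 CPM. PPAR-γ, RXR and LXR genes (10 of 11 tested) had medians of 0.03 and -0.05, with the cholesterol exporter Abca1 at 930 CPM and the lipid droplet protein Plin2 at 616 CPM.

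Genes of the MiT/TFE and lipid-associated macrophage programme, to which Gpnmb belongs (15 of 15 tested), had medians of 0.07, with 13 of 15 estimates above 0, and -0.09, with 2 of 15, and led with Apoe at 35649 CPM and Ctsb at 14721 CPM. Integrated stress response genes (12 of 13), among whose targets Gdf15 is counted, had medians of -0.0013 and 0.09, with Atf3 at 577 CPM and Atf4 at 132 CPM. Cytokine and immediate early response genes (10 of 10) had medians of 0.06 for null/null over wt/null and 0.27 for anti-TNF over isotype. For the antibody 9 of 10 estimates were above 0 and 0 had an unadjusted p below 0.05 (edgeR), with Fos at a mean of 1177 CPM and Junb at 1110 CPM. Among other ligands, estimates above 0 were 19 of 24 for genotype and 14 of 24 for the antibody. In the same order they were 14 and 6 of 22 for activation and binding proteins and 10 and 13 of 26 for receptors. They were 10 and 6 of 13 for hypoxia, 7 and 2 of 10 for PPAR-γ, RXR and LXR and 6 and 7 of 12 for integrated stress. List values are given over all 12 libraries only, and the libraries that stand apart are both anti-TNF.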

How the data were processed

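Polyadenylated RNA of sorted myeloid cells was sequenced with a stranded mRNA kit on paired-end reads, per the labels' protocols. The deposited table holds whole-number counts per gene symbol, not normalized, made by the authors. The submitters' processing notes name bcl2fastq 2.20, STAR, Bowtie and mm10 without their roles. The counting tool, its strand setting and the annotation are not stated in the labels or the notes, so reads from overlapping genes may be shared.

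The 12 columns were matched to samples by title. Replicates were numbered in the order listed and pair nothing across groups. filterByExpr kept 12981 genes, counts were scaled by TMM, and the 4 groups were fitted with robust quasi-likelihood in edgeR 4.0.16 (R 4.3.3), with tests two-sided and adjusted over all genes. SEs are the estimate over the square root of its F, and 95% intervals use the t distribution with the fit's degrees of freedom. Correlations used 100000 permutations, not kept within groups or title numbers, and log2 CPM with a prior count of 2. The fits were also run on simulated counts, with the same spread for all genes and no libraries standing apart. The outcome is not given here, and that run does not address members as variable as Spp1 or Vegfa. Genes were named by a rule: all 9 members, genes past the threshold in other lists or else the 2 most abundant, and the 3 genes most like each member. The members and lists were chosen with earlier results of these data known. Alternatives were DESeq2 1.42.0, relative log expression (RLE) scaling, no filter, the title number as a block and each library left out; the fit without both libraries that stand apart, the title number coefficient and the correlations between members were added after the data were seen.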

Additional observations from a re-analysis of the deposited data

How the results depend on the processing

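The count of members called was 0 in all 8 comparisons under every alternative run: DESeq2, RLE scaling, no filter, the title number as a block, each library left out and both libraries that stand apart left out. Over 72 member estimates (9 members, 8 comparisons) and 17 alternatives the smallest adjusted p was 0.389 (Gpnmb, anti-TNF over isotype averaged, without wt/null anti-TNF 3), with 4 adjusted p not given by DESeq2. Counts over all genes moved by more than 1.5 times with DESeq2 alone: 4 genes for genotype averaged over antibody, 14 for antibody averaged over genotype, 2 for genotype under isotype and 2 for genotype under anti-TNF. No paired analysis was run, because the labels do not say which libraries, if any, belong together. The letter and last digit of the titles were not used, so grouping by them was not tested.

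Signs of small estimates were not stable: 43 of the 72 changed sign in at least 1 alternative and 29 in none. Leaving out 1 library at a time gave these ranges of the averaged log2 fold change. For null/null over wt/null they were -0.075 to 0.37 (Gdf15), -0.48 to 0.10 (Gdf3), -0.048 to 0.087 (Igf1), -0.062 to 0.15 (Pdgfb) and -0.029 to 0.080 (Tgfb1). For anti-TNF over isotype they were -0.25 to 0.34 (Gdf3), -0.15 to 0.044 (Pdgfb), -0.044 to 0.065 (Tgfb1) and -0.068 to 0.81 (Vegfa). For Vegfa, null/null over wt/null, they were 0.23 to 1.104 averaged and 0.10 to 1.85 under isotype, both highest without wt/null isotype 3. Without both libraries that stand apart the antibody estimates of Gdf3 (-0.29), Pdgfb (0.055) and Vegfa (-0.068) changed sign; both are anti-TNF libraries. The cause was not tested. Every member had at least 134 counts in every library, and 3 libraries a group limit the precision.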
